A study of Homo sapiens with 30 samples.

Results

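Lineages 22 and 45 are sub-lines of MDA-MB-231, an established human breast carcinoma cell line, and their transcriptomes were compared after each had been grown alone. The comparison set the 3 libraries labelled lineage 22 in isolation against the 3 labelled lineage 45 in isolation, which are 6 of the 30 libraries of the series. All genes of the count table that held both lineages were eligible, and 14570 of its 26475 genes passed a filter on low counts and were tested. The series measured mRNA in several MDA-MB-231 lineages grown alone, in samples labelled Pop, and in lineages sorted out of a mixed culture, and its title names exchange of soluble metabolites between clones. The design text calls the lineages clones, and every sample carries the genotype label wt with a distinct lineage, whereas how a lineage was derived, and whether it stems from 1 cell, is not stated in the labels. Both isolation groups were grown for approximately 24 hours at 37C and 5% CO2 in RPMI-1640 with 10% dialyzed fetal bovine serum and 2 mM L-glutamine, lysed in TRIzol, and cleaned on a column with DNase. The same 2 lineages were also sequenced, in 3 libraries each, after 15 days in a 6-member co-culture in that medium, passaged every 3 days, separated by fluorescence-activated sorting and extracted with another kit. Isolation and co-culture therefore differ in culture time, company, sorting and extraction at once, and these cannot be told apart. The labels name no drug or other agent for any library.

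MDA-MB-231 is a receptor-negative breast carcinoma line with mesenchymal features, meaning that it makes vimentin and little E-cadherin. Carcinoma lines are aneuploid and drift in culture, so sub-lines grown from one line can differ in chromosome content and in which genes are silent. A gene on a gained chromosome segment is often read more, while a silenced gene, commonly one with a methylated promoter, gives almost no mRNA at all. Programs that vary between breast carcinoma sub-lines include antigen presentation and interferon response, growth factor signalling through TGF-beta and BMP, matrix and adhesion genes, and the machinery of growth such as ribosomes and DNA replication.

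Promoters of 5 genes are shown, picked without a set rule from genes with large differences and from the interferon and antigen presentation lists. Silent germline genes and interferon-stimulated genes are each known by features of the promoter sequence. Each is the 250 bases before the first RefSeq start listed for the gene (GRCh38.p14), read 5′ to 3′ on the gene's own strand. In the first 3 sequences capitals mark each CG, the pair of bases that DNA methylation uses. MAGEB2 (chrX:30215313-30215562, plus strand, 15 CG) and UGT8 (chr4:114598152-114598401, plus strand, 13 CG) were expressed in lineage 22 and almost absent in lineage 45, and COX7B2 (chr4:46909246-46909495, minus strand, 5 CG) showed the opposite. The median over promoters of the same length, found for 11402 of the 14570 tested genes, was 21 CG.
MAGEB2: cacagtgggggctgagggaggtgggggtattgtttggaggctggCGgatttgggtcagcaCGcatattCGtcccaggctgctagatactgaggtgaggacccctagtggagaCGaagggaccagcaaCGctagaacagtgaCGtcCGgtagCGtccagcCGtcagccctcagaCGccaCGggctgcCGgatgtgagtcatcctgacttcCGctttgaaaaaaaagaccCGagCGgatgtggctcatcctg
UGT8: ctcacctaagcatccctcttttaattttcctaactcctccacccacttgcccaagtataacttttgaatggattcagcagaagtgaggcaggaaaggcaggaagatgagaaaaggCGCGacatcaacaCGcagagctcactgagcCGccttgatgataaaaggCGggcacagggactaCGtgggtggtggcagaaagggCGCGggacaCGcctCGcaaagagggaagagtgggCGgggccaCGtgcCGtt
COX7B2: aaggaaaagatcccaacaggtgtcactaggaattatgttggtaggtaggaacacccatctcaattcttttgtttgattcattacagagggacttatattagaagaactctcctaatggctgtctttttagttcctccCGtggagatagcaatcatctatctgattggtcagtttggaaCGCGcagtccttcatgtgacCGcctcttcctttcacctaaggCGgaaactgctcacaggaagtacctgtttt
In the other 2 sequences capitals mark GAAA followed by a pair of any bases (NN) and GAAA, searched on both strands, the pattern of the interferon-stimulated response element. DDX60 (chr4:168318753-168319002, minus strand) held it in 2 places, from 88 to 79 and from 53 to 44 bases before the start. HLA-F (chr6:29723184-29723433, plus strand) held it once, on the other strand, from 156 to 147 bases before the start. Of the 11402 promoters of this length, 276 (2.42%) held the pattern. DDX60 and HLA-F were picked, so their matches cannot be set against that share.
DDX60: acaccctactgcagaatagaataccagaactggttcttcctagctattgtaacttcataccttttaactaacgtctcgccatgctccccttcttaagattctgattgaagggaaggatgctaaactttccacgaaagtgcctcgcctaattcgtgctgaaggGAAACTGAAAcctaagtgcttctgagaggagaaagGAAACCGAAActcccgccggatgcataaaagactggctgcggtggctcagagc
HLA-F: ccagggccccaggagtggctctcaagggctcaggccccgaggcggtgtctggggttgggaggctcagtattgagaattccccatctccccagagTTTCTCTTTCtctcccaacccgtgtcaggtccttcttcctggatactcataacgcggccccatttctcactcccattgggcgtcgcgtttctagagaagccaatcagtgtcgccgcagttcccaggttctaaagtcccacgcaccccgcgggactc
A match is a run of letters, not evidence of binding, and no methylation or binding was measured here.

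The isolation libraries held totals of 29.8 to 36.0 (in units of 1e6 counts) in lineage 22 and 34.9 to 38.8 in lineage 45, and between 12539 and 12860 genes reached 1 CPM (1 count in 1e6 of the library) in each. The 18 genes listed to describe the line summed to 10440 to 11080 CPM in lineage 22 and 9737 to 10320 CPM in lineage 45. Members of that list, which also holds epithelial genes, differed widely in level, and only a few are given here. Vimentin (VIM) stood at 3863, 4276 and 4350 CPM in lineage 22 and 3367, 3438 and 3834 CPM in lineage 45, and the hormone receptor genes ESR1 and PGR had 4 and 0 counts over the 3 libraries of lineage 22 and 1 and 1 over those of lineage 45. The difference of VIM did not pass the test (log2 difference 0.23, standard error, SE, 0.09, adjusted p = 0.05391), though it did without library 1 of lineage 22 (0.0437) or library 3 of lineage 45 (0.0383), with DESeq2 (0.0236), RLE scaling (0.0413) or a minimum of 5 CPM in 3 libraries (0.0256), and in a fit of the 6 libraries alone (0.0073). Summed fibroblast markers (5 genes, DPT at 0 in both) ranged from 8.88 to 11.8 CPM in lineage 22 and from 4.63 to 6.48 CPM in lineage 45. The corresponding sums were 203 to 232 and 143 to 182 CPM for 6 leukocyte markers, most of it LAPTM5, and 95.7 to 99.4 and 117 to 123 CPM for 6 endothelial and erythroid markers, most of it ESAM. Whether these low markers of other cells play a part in any difference was not tested. Libraries from co-culture only partly repeated the chromosome pattern of the isolation libraries of the same label. Over 422 genes of one X chromosome segment described with the chromosome results, the median log2 difference of co-culture from isolation was -0.82 in lineage 22 and -0.15 in lineage 45, while genes outside 5 such segments had medians of -0.03 and -0.02. Lineage 22 also differed between settings by -0.36 over the chromosome 4 segment and 0.31 over that of chromosome 19, and lineage 45 by -0.31 over chromosome 7. These differences share their isolation libraries with the comparison of lineages. Whether the libraries of 1 label hold the same cells was not tested.

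Lineages 22 and 45 differed widely. A gene was called where the adjusted p of edgeR's quasi-likelihood test (Benjamini-Hochberg over all genes tested) was under 0.05, and 5598 of 14570 genes were called (38.4%). Of these, 2717 were higher in lineage 22 (18.6% of genes tested) and 2881 were higher in lineage 45 (19.8%). The larger differences lay mostly on one side. Called differences of at least 2-fold numbered 881 higher in lineage 22 (6.05%) and 286 higher in lineage 45 (1.96%), and those of at least 8-fold numbered 178 (1.22%) and 22 (0.151%). The 3 libraries of one lineage did not overlap the 3 of the other in 8530 genes (58.5%). The labels do not say whether replicates were separate cultures, so every p-value measures the spread between these libraries, which may be technical. In bulk libraries, fewer cells of a type and less RNA per cell cannot be told apart, and this holds for each gene that follows. Of the 2-fold differences, 345 and 127 were left where genes needed at least 5 CPM in 3 libraries, a filter that removes low genes.

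Many of the largest differences were genes read in lineage 22 and close to silent in lineage 45. MAGEB2 (X:30215560-30220089, GENCODE v29), a cancer-testis antigen gene that normal tissue other than testis keeps silent, stood at 37.5, 37.8 and 36.9 CPM in lineage 22 and at 0 in all 3 libraries of lineage 45. The 3869 counts against 0 make it at least 1404-fold higher in lineage 22, taking 3 counts over the group as the floor (adjusted p = 1.259e-08). RPS6KA6 (X:84058346-84187907), which encodes the kinase RSK4, stood at 6.64, 5.93 and 6.88 CPM against 0 throughout, at least 245-fold higher (adjusted p = 6.256e-11). For both genes the groups were apart without any overlap.

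UGT8, NLRP2 and CLEC11A followed the same pattern with 1 to 3 counts left in lineage 45. UGT8, the enzyme that makes galactosylceramide, stood at 16.2, 14.6 and 15.2 CPM in lineage 22 and at 0, 0 and 0.025 CPM in lineage 45, a ratio of 1728 with a 95% counting interval of 310 to 68301. NLRP2, a NOD-like receptor family gene, stood at 22.2, 20.1 and 21.4 CPM against 0.028, 0.054 and 0 CPM, a ratio of 800 (273 to 3881). CLEC11A, a secreted growth factor of the C-type lectin family, stood at 13.2, 13.8 and 15.5 CPM against 0.028, 0 and 0.025 CPM, a ratio of 802 (222 to 6629). In each, all 3 libraries of lineage 22 lay above all 3 of lineage 45. Counting intervals cover counting error only. GPR158, an orphan receptor gene, had a ratio of 579 (160 to 4790), and the long noncoding RNAs LINC01139 and LINC01602 had ratios of 361 (123 to 1754) and 246 (83.7 to 1195). The adjusted p of these 6 genes ran from 6.493e-14 (GPR158) to 3.579e-11 (NLRP2).

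Genes of cell surface and cytoskeleton completed the 12 largest differences toward lineage 22. EMB, an immunoglobulin-family partner of lactate transporters, stood at 8.67, 8.08 and 8.42 CPM against 0.056, 0.027 and 0.0501 CPM (log2 difference 7.45, SE 0.31, adjusted p = 4.779e-13). FRMD3, a FERM-domain protein gene, stood at 30, 27.3 and 26.6 CPM against 0.196, 0.108 and 0.175 CPM (log2 difference 7.42, SE 0.53, adjusted p = 6.484e-08). COBL, an actin nucleator, and TMEM98, a membrane protein gene, had log2 differences of 7.04 (SE 0.38) and 6.28 (SE 0.47). The lowest library of lineage 22 lay far above the highest of lineage 45 in all 4. Over the whole table, 167 called genes were at least 8-fold higher in lineage 22 with a mean under 1 CPM in lineage 45. Of them 144 were protein-coding, 37 reached 5 CPM in lineage 22, and 17 lay on the X chromosome. The reverse pattern held for 21 genes, of which 3 reached 5 CPM in lineage 45.

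**Figure D1:**
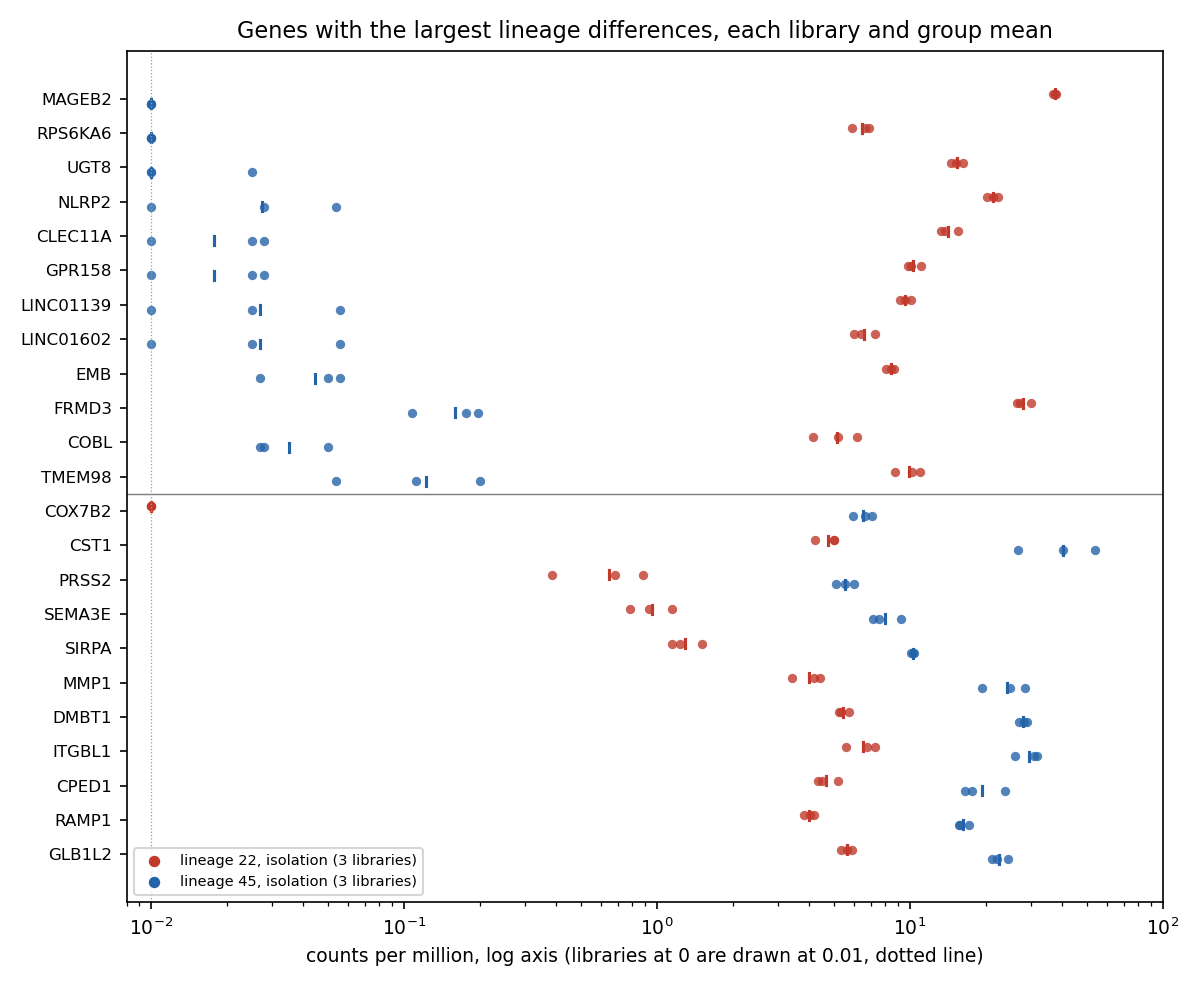
Expression in CPM on a log axis for the 12 genes with the largest difference toward lineage 22 and 11 of the 12 toward lineage 45 among called genes with at least 5 CPM in the higher lineage, each point 1 library (red, lineage 22 in isolation; blue, lineage 45 in isolation) and each tick a group mean of 3 libraries. In the upper 12 genes lineage 45 sits at or near 0, whereas in the lower 11 only COX7B2 is at 0 in lineage 22.

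Among genes higher in lineage 45, COX7B2 alone of the 12 largest differences was silent in the other lineage. COX7B2 (4:46734827-46909235), a testis-enriched subunit of cytochrome c oxidase, stood at 7.06, 6.67 and 5.93 CPM in lineage 45 and at 0 in all 3 libraries of lineage 22, at least 225-fold higher in lineage 45 (adjusted p = 3.318e-08). CST1, a secreted cysteine protease inhibitor, stood at 54.0, 40.2 and 26.7 CPM in lineage 45 against 5.02, 4.20 and 5.00 CPM (log2 difference -3.08, SE 0.37, adjusted p = 1.29e-05). MMP1, the interstitial collagenase, stood at 28.6, 19.3 and 25.0 CPM against 3.41, 4.42 and 4.19 CPM (log2 difference -2.60, SE 0.22, adjusted p = 4.036e-08). Libraries of lineage 45 varied widely among themselves for CST1, and still none reached down to lineage 22. SEMA3E, a secreted guidance ligand, and SIRPA, the receptor for the CD47 "do not eat me" signal, were 8.38-fold and 7.94-fold higher in lineage 45. DMBT1, a scavenger receptor gene, stood at 28.2, 29 and 26.9 CPM against 5.26, 5.77 and 5.34 CPM (log2 difference -2.36, SE 0.11, adjusted p = 2.999e-12). PRSS2, a trypsinogen with near-identical relatives among which reads can be shared, was 8.45-fold higher. ITGBL1, CPED1, RAMP1 and GLB1L2 were between 4.01-fold and 4.54-fold higher in lineage 45.

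The most abundant genes at least 2-fold different included KRT81, HLA-B and TNS4 toward lineage 22 and EEF2, GPI and ENPP1 toward lineage 45. KRT81, a hair-type keratin that shares sequence with KRT86, stood at 1407, 1220 and 1147 CPM against 575, 399 and 369 CPM (log2 difference 1.49, SE 0.13, adjusted p = 3.959e-08). TNS4, a focal adhesion protein gene, stood at 594, 519 and 609 CPM against 108, 106 and 85.1 CPM (log2 difference 2.53, SE 0.20, adjusted p = 8.611e-08). Both were higher in every library of lineage 22. HEG1, SPANXB1 and CLIC4 were 2.18-fold, 2.44-fold and 2.13-fold higher in lineage 22, SPANXB1 being one of several near-identical germline genes. EEF2, the elongation factor that moves the ribosome along mRNA, stood at 2112, 1870 and 2000 CPM in lineage 45 against 806, 826 and 779 CPM (log2 difference -1.31, SE 0.09, adjusted p = 4.229e-10). ENPP1, an ectoenzyme that breaks down nucleotides including cGAMP, stood at 190, 213 and 191 CPM against 51.0, 53.2 and 54.8 CPM (log2 difference -1.90, SE 0.12, adjusted p = 1.297e-10). Lineage 45 lay above lineage 22 in every library for EEF2 and ENPP1. GPI, FLNC, PEG10 and WDR62 were between 2.10-fold and 2.33-fold higher in lineage 45.

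Antigen presentation genes were mostly higher in lineage 22. Of 23 tested genes of HLA class I and II presentation, 17 were higher in lineage 22 and 0 in lineage 45 (beside 18.6% and 19.8% of all genes), with a median log2 difference of 0.42 beside -0.01 over all genes. No member was higher in lineage 45 with DESeq2 either, and 0 were at an unadjusted p under 0.05 in edgeR's quasi-likelihood test. The members of this list and of those that follow were chosen with earlier results of these data known. HLA-B, a class I heavy chain gene, stood at 765, 817 and 800 CPM in lineage 22 and 289, 284 and 265 CPM in lineage 45 (log2 difference 1.51, SE 0.09, adjusted p = 1.254e-10). HLA-F, a class I gene of low level, stood at 15.7, 13 and 12 CPM against 2.61, 2.11 and 1.65 CPM (log2 difference 2.68, SE 0.19, adjusted p = 1.016e-09). The lineages did not overlap at either gene. HLA-C and ERAP1, the peptide trimming enzyme, were 1.69-fold and 1.85-fold higher in lineage 22. HLA genes resemble one another, and reads can be shared among them, so single-gene values are uncertain.

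Interferon-stimulated genes moved in both directions, mostly toward lineage 22. Of 43 tested, 23 were higher in lineage 22 and 6 in lineage 45, with a median log2 difference of 0.31. DDX60, an antiviral helicase, stood at 282, 227 and 250 CPM in lineage 22 and 85.3, 99.4 and 96.2 CPM in lineage 45 (log2 difference 1.43, SE 0.11, adjusted p = 2.276e-09). RSAD2, which encodes viperin, stood at 19.8, 20.4 and 22.4 CPM against 3.05, 4.48 and 4.51 CPM (log2 difference 2.37, SE 0.18, adjusted p = 4.126e-09). OAS1, which senses double-stranded RNA, was 3.07-fold higher and XAF1, a pro-apoptotic gene, 2.39-fold higher. The 6 members higher in lineage 45 are named here after their values were seen. They were ISG15, IFIT1, IFIT2, IFIT3, IFI44 and IFITM2, all below 2-fold. ISG15, a ubiquitin-like modifier, stood at 207, 203 and 183 CPM in lineage 45 against 141, 139 and 131 CPM in lineage 22 (log2 difference -0.53, SE 0.10, adjusted p = 0.0002551). IFIT2, an RNA-binding antiviral gene, stood at 248, 270 and 265 CPM against 185, 180 and 194 CPM (log2 difference -0.49, SE 0.11, adjusted p = 0.001752). Neither gene overlapped between lineages. The call of IFIT3 (log2 difference -0.32, adjusted p = 0.04355) was lost when any 1 of the 6 libraries was left out, with adjusted p from 0.0562 to 0.112. In edgeR's test it was also lost with RLE scaling (adjusted p = 0.0583) and with a minimum of 5 CPM in 3 libraries (0.0764).

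Genes of NF-kappaB signalling and cytokines were called in 1 direction. Of 29 tested, 15 were higher in lineage 22 and 0 in lineage 45, with a median log2 difference of 0.49, and 8 were higher in lineage 22 where genes needed at least 5 CPM in 3 libraries. Toward lineage 45, 1 gene was at an unadjusted p under 0.05 in edgeR's test, DESeq2 called 0, and 1 was called in a fit of the 6 libraries alone. CCL5, a chemokine that draws T cells, stood at 4.14, 5.58 and 4.92 CPM against 0.644, 0.540 and 0.526 CPM (log2 difference 3.09, SE 0.32, adjusted p = 2.479e-07). TNFSF10, the death ligand TRAIL, stood at 24.9, 19.8 and 22.4 CPM against 9.66, 10.5 and 8.66 CPM (log2 difference 1.22, SE 0.16, adjusted p = 2.989e-06). Every library of lineage 22 exceeded every library of lineage 45 for both. IL11, a cytokine of the IL-6 family that breast carcinoma cells secrete, was 1.67-fold higher, and the costimulatory receptor TNFRSF9 5.04-fold higher at 2.64, 2.08 and 2.04 CPM. Among complement and plasmin genes, C1S, a protease of the classical complement pathway, stood at 6.85, 5.35 and 5.41 CPM against 0.840, 0.540 and 0.701 CPM. SERPINE2, an inhibitor of thrombin and plasminogen activators, stood at 96.3, 109 and 103 CPM against 22.6, 23.0 and 29.1 CPM (log2 difference 2.05, SE 0.11, adjusted p = 1.085e-11). Both were higher in lineage 22 in all libraries, whereas F13A1, a transglutaminase chain, was 3.30-fold higher in lineage 45. Of the 25 tested genes of that list, 11 were higher in lineage 22 and 4 in lineage 45.

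TGF-beta and BMP genes carried some of the clearest differences at moderate level. Of 25 tested ligands, receptors and targets, 16 were higher in lineage 22 and 5 in lineage 45, with a median log2 difference of 0.52. Among ligands, INHBB, the activin beta B chain, stood at 82.3, 86.6 and 90.3 CPM in lineage 22 against 11.6, 12.3 and 12.4 CPM (log2 difference 2.84, SE 0.16, adjusted p = 2.074e-10). BMP6, a BMP ligand named after its value was seen, stood at 1.4, 1.43 and 1.88 CPM in lineage 45 against 0.382, 0.321 and 0.445 CPM (log2 difference -2.02, SE 0.25, adjusted p = 1.996e-06). The 2 ligands thus lay on opposite sides. Among inhibitors, SMAD6, which blocks BMP receptor signalling, stood at 15.0, 12.6 and 14.4 CPM in lineage 22 against 2.49, 3.46 and 2.43 CPM (log2 difference 2.32, SE 0.18, adjusted p = 2.951e-09). Among targets, TGFBI, a secreted matrix protein gene, stood at 320, 307 and 328 CPM against 70.0, 69.6 and 58.6 CPM (log2 difference 2.27, SE 0.10, adjusted p = 1.479e-12). ID2, a BMP target that blocks differentiation factors, was 4.38-fold higher. Other members higher in lineage 45, named after their values were seen, included the secreted antagonists FST (1.42-fold), FSTL3 (1.23-fold) and NOG (1.23-fold). The count of 5 fell to 3 without library 2 of lineage 22, 2 without its library 3, and 3 without library 3 of lineage 45. The call of FST was lost without library 3 of lineage 22 (adjusted p = 0.0588), that of FSTL3 without library 2 or 3 of lineage 22 or 1 or 3 of lineage 45 (0.0573 to 0.111), and that of NOG without any 1 library of lineage 22 or library 2 or 3 of lineage 45 (0.0565 to 0.117) or with a minimum of 5 CPM in 3 libraries (0.0541).

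Most called matrix and adhesion genes were higher in lineage 22. Of 28 tested collagens and their processing enzymes, 18 were higher in lineage 22 and 4 in lineage 45 (median log2 difference 0.43). COL6A2, a chain of the microfibrillar collagen VI, stood at 152, 162 and 174 CPM against 32.0, 31.6 and 33.0 CPM (log2 difference 2.34, SE 0.18, adjusted p = 3.855e-08). COL5A1, a fibrillar collagen chain, stood at 390, 394 and 431 CPM against 153, 163 and 162 CPM (log2 difference 1.35, SE 0.09, adjusted p = 8.131e-10). The collagen cross-linking enzymes LOXL2 and LOXL4 were 1.71-fold and 2.66-fold higher in lineage 22, and the lineages did not overlap at any of these 4 genes. Of 34 tested integrins, laminins and matricellular genes, 18 were higher in lineage 22 and 3 in lineage 45 (median 0.45), the 3 becoming 1 without library 1 of lineage 22 and 0 without library 3 of lineage 45. ITGB1, the main integrin beta chain, stood at 2440, 2511 and 2606 CPM against 1419, 1631 and 1750 CPM (log2 difference 0.65, SE 0.08, adjusted p = 2.989e-06). SPARC, a secreted collagen-binding protein gene, was 8.36-fold higher at 3.64, 4.78 and 6.12 CPM, and LAMC1, a laminin chain, 1.93-fold higher. Of 25 tested matrix proteases and inhibitors, 12 were higher in lineage 22 and 6 in lineage 45 (median 0.47). Those higher in lineage 45 included MMP1, given above, ADAMTS1 (3.15-fold) and ADAM12 (3.05-fold), and cathepsin V (CTSV) was 3.96-fold higher in lineage 22.

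Most called epithelial genes were higher in lineage 22. Of 36 tested keratins and junction genes, 17 were higher in lineage 22, 3 in lineage 45 and 16 were not called (median 0.38), the 3 becoming 1 without library 2 of lineage 22. CD24, a surface glycoprotein whose absence marks mesenchymal breast carcinoma cells, stood at 32.6, 35.6 and 37.7 CPM in lineage 22 against 3.98, 4.70 and 5.76 CPM (log2 difference 2.87, SE 0.16, adjusted p = 5.938e-11). LSR, a protein of tricellular junctions, stood at 13.2, 10.2 and 9.21 CPM against 3.36, 2.38 and 2.33 CPM (log2 difference 2.02, SE 0.15, adjusted p = 1.962e-09). CDH1, which encodes E-cadherin, stayed low in both at 2.17, 1.38 and 1.02 CPM against 0.588, 0.486 and 0.426 CPM (log2 difference 1.60, SE 0.30, adjusted p = 0.0002653). None of the 3 overlapped between lineages. The mesenchymal transcription factor gene SNAI2 was also higher in lineage 22, 1.71-fold. Of 17 tested cadherins, 8 were higher in lineage 22 and 4 in lineage 45 (median 0.76). PCDH1, a protocadherin, stood at 46.3, 42.8 and 48.5 CPM against 8.15, 7.99 and 6.69 CPM (log2 difference 2.59, SE 0.13, adjusted p = 6.48e-12). S100P, a secreted calcium-binding protein gene linked to metastasis, stood at 32.9, 23.3 and 24.3 CPM against 1.15, 0.945 and 0.801 CPM (log2 difference 4.80, SE 0.19, adjusted p = 3.531e-13). Of 19 tested S100 and annexin genes, 11 were higher in lineage 22 and 1 in lineage 45, the latter becoming 0 without library 3 of lineage 22 or library 3 of lineage 45. ROBO1, the receptor for the guidance ligand SLIT, stood at 38.0, 34.1 and 36.8 CPM in lineage 22 against 1.23, 0.837 and 1.5 CPM (log2 difference 4.92, SE 0.27, adjusted p = 2.384e-10). Both S100P and ROBO1 were far apart between lineages, and of 32 tested guidance genes 14 were higher in lineage 22 and 3 in lineage 45.

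**Figure D2:**
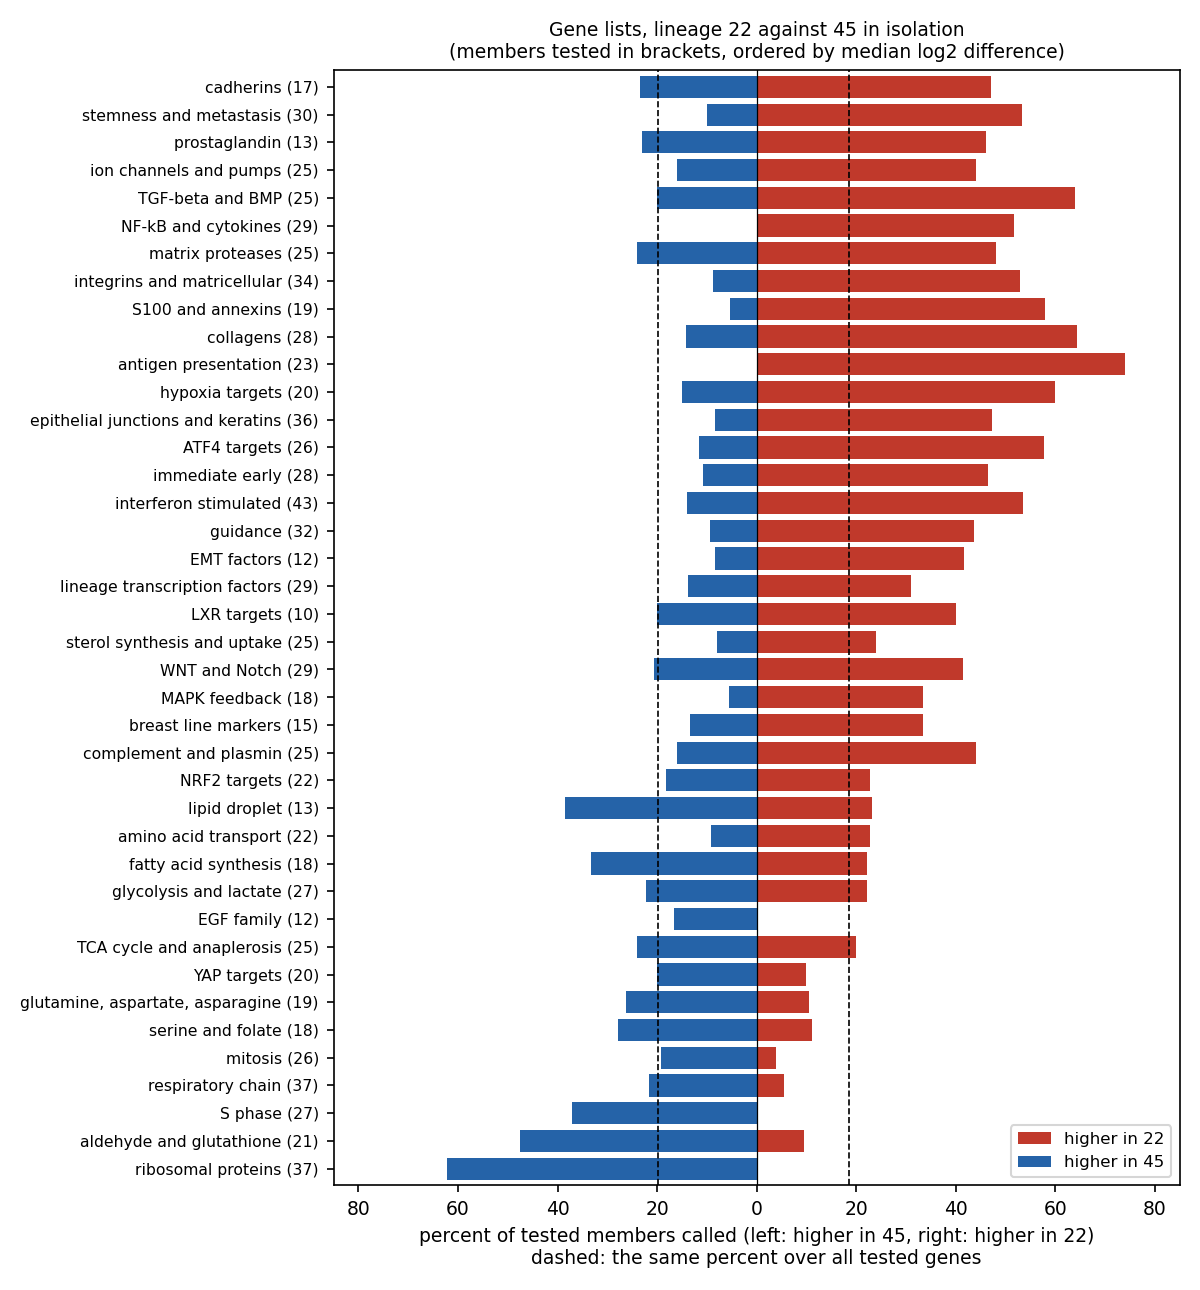
Percent of tested members called higher in lineage 22 (right, red) or higher in lineage 45 (left, blue) for the gene lists with the number tested in brackets, ordered by median log2 difference, with the percent over all tested genes dashed. Antigen presentation reaches 17 of 23 on the right with none on the left, and ribosomal proteins reach 23 of 37 on the left with none on the right.

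Stress and nutrient genes divided by pathway. Of 26 tested targets of ATF4, the factor that answers amino acid shortage, 15 were higher in lineage 22 and 3 in lineage 45 (median 0.37), the 3 becoming 1 without library 3 of lineage 22 or library 1 of lineage 45. PHGDH, the first enzyme of serine synthesis and known for its low level in MDA-MB-231, stood at 17.4, 20.4 and 18.2 CPM against 3.59, 2.70 and 3.88 CPM (log2 difference 2.46, SE 0.19, adjusted p = 5.258e-09). Of the 18 tested genes of the serine and folate list, which holds PHGDH too, 2 were higher in lineage 22 and 5 in lineage 45, the 2 becoming 4 without library 3 of lineage 22. In either direction 38.89% of that list was called, near the 38.4% of all genes. Of 20 tested targets of hypoxia-inducible factors, 12 were higher in lineage 22 and 3 in lineage 45 (median 0.40). EGLN3, a prolyl hydroxylase that senses oxygen, stood at 14.5, 17.8 and 20.2 CPM against 5.41, 6.29 and 5.88 CPM (log2 difference 1.58, SE 0.16, adjusted p = 1.368e-07). STC1, a secreted calcium-regulating hormone gene, was 1.80-fold higher. Targets of NRF2, the oxidative stress factor, did not lean to a side over the list, with 5 of 22 higher in lineage 22 and 4 in lineage 45, the 4 becoming 1 without library 3 of lineage 45. Within it AKR1C3, a ketosteroid reductase with close relatives that can share reads, stood at 56.1, 69.4 and 83.2 CPM against 16.4, 19.3 and 22.7 CPM (log2 difference 1.84, SE 0.22, adjusted p = 8.042e-06). The lineages did not overlap at this gene.

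In glycolysis and the tricarboxylic acid cycle the counts were near the background and single enzymes differed. Of 27 tested glycolysis genes, 6 were higher in each lineage, and of 25 tested tricarboxylic acid cycle and anaplerosis genes, 5 were higher in lineage 22 and 6 in lineage 45. GPI, the enzyme that converts glucose 6-phosphate to fructose 6-phosphate, stood at 397, 394 and 383 CPM in lineage 45 against 169, 192 and 191 CPM (log2 difference -1.09, SE 0.07, adjusted p = 2.334e-10). HK2, which traps glucose in the cell, was 1.87-fold higher in lineage 45, and PGK1, a later step, 1.69-fold higher in lineage 22. MDH2, OGDH, SDHA and DLD, enzymes of the mitochondrial cycle, were 1.77-fold, 1.65-fold, 1.62-fold and 1.54-fold higher in lineage 45. Of 25 tested cholesterol synthesis and uptake genes, 6 were higher in lineage 22 and 2 in lineage 45 (median 0.21), the 6 becoming 11 in a fit of the 6 libraries alone and the 2 becoming 1 without library 1 or 2 of lineage 22 or library 2 or 3 of lineage 45. In either direction 32% of these genes were called, below the 38.4% of all genes. ABCG1, a cholesterol exporter and target of the sterol-activated receptor LXR, was 12-fold higher in lineage 22 at 9.43, 6.93 and 6.54 CPM. Of 21 tested aldehyde dehydrogenase and glutathione genes, 10 were higher in lineage 45 and 2 in lineage 22 (median -0.23), the 2 becoming 0 to 1 when any 1 library was left out. GSTM1, GSTM2 and GSTM4, neighbouring glutathione transferases with similar sequences, were 1.56-fold, 2.05-fold and 1.77-fold higher in lineage 45.

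Ribosomal protein genes were mostly higher in lineage 45, as were the called S phase genes. Of 37 tested cytosolic ribosomal protein genes, 23 were higher in lineage 45 and 0 in lineage 22 (median log2 difference -0.30), the 23 becoming 15 without library 3 of lineage 22. RPS15, a small-subunit protein, stood at 510, 473 and 484 CPM in lineage 45 against 261, 280 and 263 CPM (log2 difference -0.87, SE 0.09, adjusted p = 2.34e-07). RPS2, another small-subunit protein, stood at 1613, 1553 and 1602 CPM against 971, 1089 and 955 CPM (log2 difference -0.66, SE 0.09, adjusted p = 5.668e-06). Lineage 45 was higher in every library for both. RPL5 and RPLP0 were 1.67-fold and 1.39-fold higher in lineage 45. Of 27 tested S phase genes, 10 were higher in lineage 45, 0 in lineage 22 and 17 were not called (median -0.21). For both lists, 0 members were higher in lineage 22 with DESeq2 or at an unadjusted p under 0.05 in edgeR's test. CCNE1, the cyclin that opens S phase, stood at 22.0, 23.4 and 23.0 CPM against 11, 11.1 and 9.97 CPM (log2 difference -1.09, SE 0.09, adjusted p = 1.3e-08). MCM7, a subunit of the replicative helicase, stood at 494, 416 and 403 CPM against 269, 273 and 246 CPM (log2 difference -0.74, SE 0.09, adjusted p = 1.143e-06). Both were higher in lineage 45 without overlap. Of 26 tested mitosis genes, 5 were higher in lineage 45 and 1 in lineage 22, the 5 becoming 2 without library 1 of lineage 22, 3 without its library 3 or library 1 of lineage 45, and 11 in a fit of the 6 libraries alone. Of 37 tested respiratory chain genes, 8 were higher in lineage 45 and 2 in lineage 22, the 8 becoming 5 without library 3 of lineage 22 or library 1 or 2 of lineage 45 and 13 in the fit of 6, and the 2 becoming 1 without library 1 or 2 of lineage 22 or library 3 of lineage 45. The mitosis and respiratory chain shares toward lineage 45 were near the 19.8% of all genes. In either direction 23.08% and 27.03% of these lists were called, beside 38.4% of all genes.

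Smaller programs added single genes to this picture. Of 29 tested Wnt and Notch genes, 12 were higher in lineage 22 and 6 in lineage 45, and the 12 became 7 where genes needed at least 5 CPM in 3 libraries. JAG1, a Notch ligand, stood at 422, 436 and 425 CPM in lineage 22 against 214, 242 and 237 CPM (log2 difference 0.89, SE 0.09, adjusted p = 2.208e-07). LEF1, a transcription factor of the Wnt pathway, stood at 12.2, 11.4 and 12.6 CPM in lineage 45 against 6.11, 5.64 and 6.96 CPM (log2 difference -0.95, SE 0.11, adjusted p = 1.017e-06). The 2 genes lay on opposite sides without overlap, and the Wnt receptor FZD8 was 2.98-fold higher in lineage 22. Of 25 tested channels and pumps, 11 were higher in lineage 22 and 4 in lineage 45, the 11 becoming 6 under that filter. ATP1B1, a subunit of the sodium pump, stood at 278, 295 and 291 CPM against 123, 140 and 134 CPM in lineage 45 (log2 difference 1.12, SE 0.07, adjusted p = 2.368e-10), and the potassium channel gene KCNQ5 was 1.94-fold higher in lineage 45. Of 28 tested immediate early genes, 13 were higher in lineage 22 (8 under that filter) and 3 in lineage 45 (1 without library 1 of lineage 45), with KLF10 1.73-fold higher in lineage 22. Targets of YAP and TAZ, which answer cell tension, divided: CTGF stood at 444, 473 and 498 CPM in lineage 45 against 283, 298 and 327 CPM (log2 difference -0.64, SE 0.08, adjusted p = 1.303e-06), whereas ANKRD1 was 1.48-fold higher in lineage 22. Of the 20 tested YAP and TAZ targets, 2 were higher in lineage 22 and 4 in lineage 45, becoming 5 and 8 in a fit of the 6 libraries alone. In either direction 30% of these targets were called, below the 38.4% of all genes. In prostaglandin metabolism PTGS1, a cyclooxygenase, stood at 10.8, 11 and 11.3 CPM in lineage 22 against 3.5, 4.40 and 3.18 CPM, and TBXAS1, the thromboxane synthase, was 3.10-fold higher in lineage 45. Of the 13 tested genes of that list, 6 were higher in lineage 22 and 3 in lineage 45.

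Of 30 tested stem cell and metastasis genes, 16 were higher in lineage 22, 10 of them at least 2-fold, and 3 in lineage 45 (63.33% called beside 38.4% of all genes, median 0.71). Further lists are given by their counts, first those higher in lineage 22 and then those higher in lineage 45. These were 9 and 4 of 29 for lineage transcription factors, 6 and 1 of 18 for MAPK feedback, 5 and 1 of 12 for mesenchymal transition factors, 5 and 2 of 22 for amino acid transporters, 4 and 6 of 18 for fatty acid synthesis, 3 and 5 of 13 for lipid droplets, 4 and 2 of 10 for LXR targets, 2 and 5 of 19 for glutamine, aspartate and asparagine, 0 and 3 of 5 for metallothioneins, 0 and 2 of 12 for EGF ligands and receptors, and 5 and 2 of 15 for the line's markers. Toward lineage 22, an unadjusted p under 0.05 in edgeR's test and DESeq2 each gave 0 metallothioneins and 1 EGF gene, and a fit of the 6 libraries alone gave 0 and 3. In either direction 31.82% of amino acid transporters, 36.84% of the glutamine group and 16.67% of EGF genes were called, below the 38.4% of all genes. MAPK feedback at 38.89% was near that share. Several of the further lists rest on few genes, and leaving out 1 library changed some counts by over 1.5 times. Amino acid transporters higher in lineage 22 became 1 without library 1 of lineage 22 or library 2 of lineage 45 and 2 without library 3 of lineage 45, and those higher in lineage 45 became 1 without library 2 or 3 of either lineage. Transcription factors higher in lineage 45 became 2 without any 1 library of lineage 22 or library 2 of lineage 45. Lipid droplet genes higher in lineage 45 became 3 without library 3 of either lineage, LXR targets higher in it became 0 to 1 without any 1 library, and EGF genes and line markers higher in it became 1 without library 3 of lineage 22 or library 2 of lineage 45. The MAPK gene higher in lineage 45 was lost without library 2 of lineage 22, and glutamine group genes higher in lineage 22 became 1 without library 1 or 2 of lineage 22 or library 2 or 3 of lineage 45. Among single genes, ASL, the argininosuccinate lyase, stood at 25.8, 23.8 and 22.3 CPM in lineage 45 against 11.2, 11.9 and 10.8 CPM (log2 difference -1.09, SE 0.09, adjusted p = 1.319e-08). SLC1A3, an aspartate and glutamate transporter, stood at 10.4, 9.49 and 11.7 CPM in lineage 22 against 3.67, 4.83 and 4.16 CPM (log2 difference 1.32, SE 0.16, adjusted p = 1.592e-06). Both were apart in all libraries, and ACLY, which makes acetyl-CoA for lipid synthesis, was 1.39-fold higher in lineage 45.

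Cancer-testis genes, which germ cells use and tumours reawaken, were mostly too low to test. Of 33 listed, 8 were tested and 3 were higher in lineage 22, and all 8 lay in the X chromosome segment described next. Besides MAGEB2, FAM133A stood at 22.4, 24.7 and 27.0 CPM in lineage 22 against 0.224, 0.432 and 0.601 CPM (log2 difference 5.85, SE 0.25, adjusted p = 5.959e-13). MAGED4, which has near-identical copies, varied between replicates at 7.55, 2.82 and 0 CPM against 0, 0 and 0.476 CPM and its groups overlapped. Its call (adjusted p = 0.02771) was lost without library 1 of lineage 22 (0.145), library 1 of lineage 45 (0.0907) and library 2 of lineage 45 (0.0895). It was also lost with a replicate block (0.0645), in a fit of the 6 libraries alone (0.154) and without lineage 35 (0.079). The count of 3 became 2 in each of those 3 fits and 5 without library 3 of lineage 22.

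Median differences varied along the genome. Tested protein-coding genes were placed in 254 windows of 50 neighbours, the last of a chromosome holding up to 99, and runs of at least 2 windows whose median log2 difference was at least 0.25 in size were joined to segments, a rule set after the data were seen. There were 5 segments, and 1949 tested genes of any type lay between their ends. The segments were chosen on these medians, so the values that follow describe them and support nothing further. Across 422 genes at X:20124518-155334657 the median was 0.55, with 290 genes higher in lineage 22 and 7 in lineage 45. Across 149 genes at 4:122732702-190027257 the median was 0.58, with 113 genes higher in lineage 22. Across all 705 placed genes of chromosome 7 it was -0.50 with 28 and 455, across 413 genes at 19:281040-19192158 it was -0.54 with 24 and 274, and across 260 genes at 1:53851719-119140671 it was -0.47 with 17 and 165. Windows past 0.25 without a neighbour past it on the same side were left out of the segments. Their medians were -0.52 at 19:32581068-36014239, with 32 of 50 genes higher in lineage 45, and -0.31 at 5:92151-32313009, with 26 of 50. Medians toward lineage 22 were 0.39 at 6:26156354-30346854, 0.37 at 19:50358477-53458261 and 0.28 at 19:55759014-58573575. Over the X segment the 3 libraries of lineage 22 had medians of 0.54, 0.53 and 0.51 against the mean of lineage 45. DNA copy number was not measured, and its part in these medians was not tested.

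Many genes already described lie in these segments. MAGEB2, RPS6KA6, FAM133A, SPANXB1 and PGK1 are in the X segment, and UGT8 lies outside the chromosome 4 segment that holds DDX60. EEF2, RPS15 and FSTL3 are in the chromosome 19 segment, and RPL5, GSTM1, GSTM2, GSTM4 and IFI44 are in the chromosome 1 segment. SEMA3E, PRSS2, CPED1, FLNC, PEG10, MDH2, OGDH, DLD, MCM7, ASL and TBXAS1 are on chromosome 7. All of these genes of chromosomes 1, 7 and 19 were higher in lineage 45, as were the medians there. COBL on chromosome 7 and PTGFRN in the chromosome 1 segment were higher in lineage 22, against the medians around them. Genes counted as outside the segments still include those of the single windows left out above. Among these are GPI, LRP3, LSR and CLEC11A on chromosome 19, HLA-F on chromosome 6 and SDHA on chromosome 5. The list counts that follow are therefore not free of regional shifts. List counts outside the segments were 0 and 21 of 35 for ribosomal proteins (higher in lineage 22 and in lineage 45), 0 and 7 of 23 for S phase, 17 and 0 of 23 for antigen presentation, 21 and 5 of 35 for interferon-stimulated genes, and 14 and 3 of 21 for TGF-beta and BMP. Of the 45 lists, 15 had a count that changed by over 1.5 times when genes of the segments were set aside. Toward lineage 22, cadherins became 5 (median 0.38 in place of 0.76), cholesterol genes 3, fatty acid synthesis genes 2, respiratory chain genes 0 and cancer-testis genes 0. Toward lineage 45, aldehyde and glutathione genes became 6, TGF-beta and BMP genes, tricarboxylic acid cycle genes and lipid droplet genes 3 each, YAP and TAZ targets 2, and epithelial, guidance and line marker genes 1 each. ATF4 targets, immediate early genes and cholesterol genes toward lineage 45 became 0. The median of the prostaglandin list was 0.03 in place of 0.53.

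**Figure D3:**
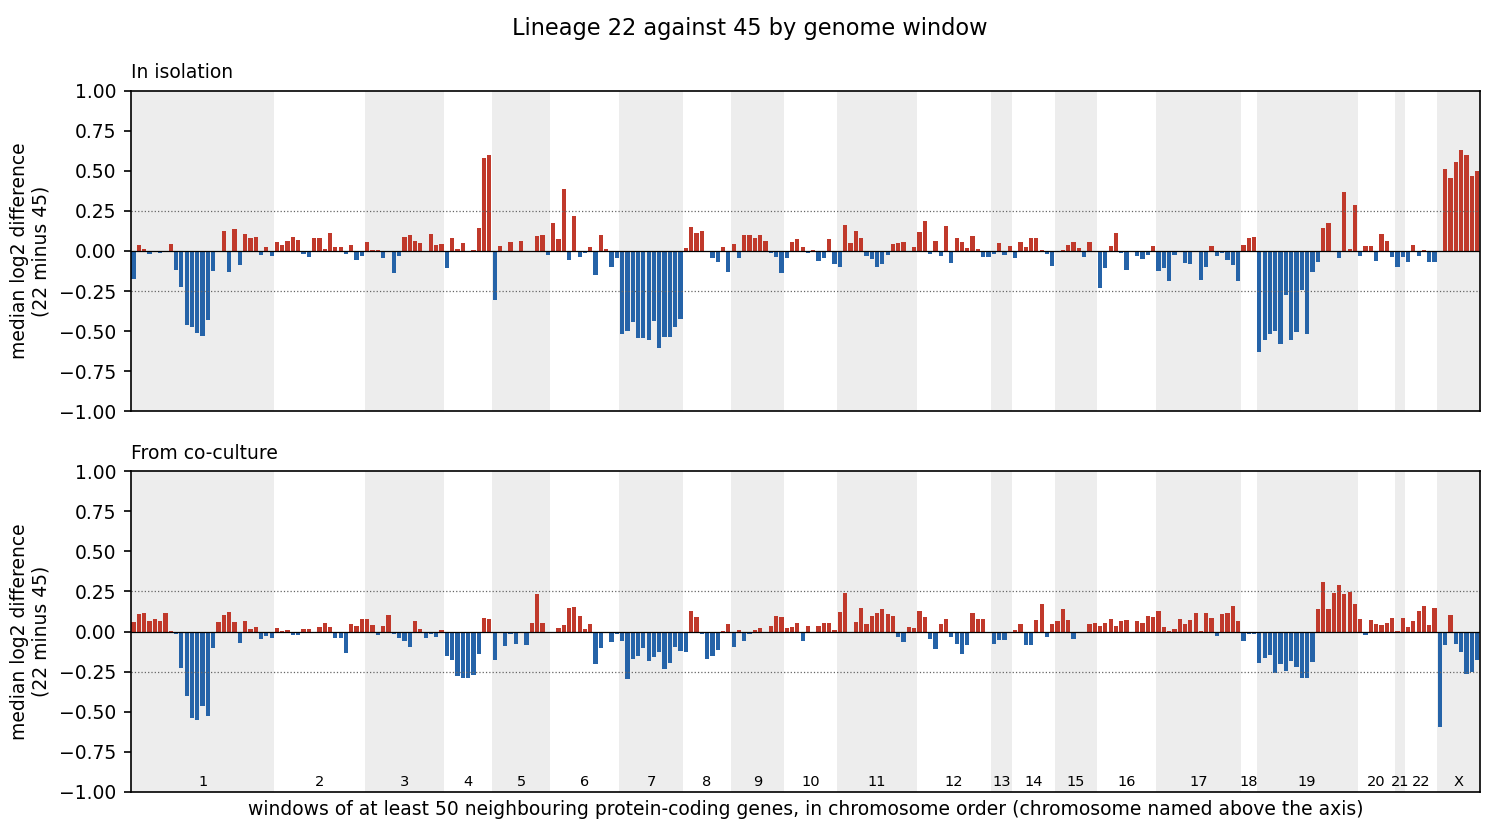
Median log2 difference (22 minus 45) in windows of at least 50 neighbouring protein-coding genes in chromosome order, in isolation (upper panel) and from co-culture (lower panel), with dotted lines at 0.25 on either side of 0. In isolation part of chromosome 1, chromosome 7 and part of 19 lie below 0 and the end of chromosome 4 and most of X above it, whereas from co-culture the X windows are at or below 0 apart from 1. Some windows are past 0.25 from co-culture only, among them X:2828788-19970298 (-0.60, beside -0.0004 in isolation) and 4:25312785-48861817 (-0.28, beside 0.01).

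The same contrast in the co-culture libraries, which share no sample with the isolation comparison, was smaller. From co-culture 3669 genes were called (25.2%), 1922 higher in lineage 22 (13.2%) and 1747 higher in lineage 45 (12%), and 634 of either direction were at least 2-fold (4.35%). In both settings 1964 genes were called in the same direction, 35.08% of the isolation calls and 53.53% of the co-culture calls, and 195 of 2159 genes called in both were opposite. Across all tested genes the log2 differences of the 2 settings had a Pearson correlation of 0.496, given as a description because genes are not independent replicates. The contrast itself differed between settings in 2524 genes (17.3%, test of the difference of differences). Of the 881 genes at least 2-fold higher in lineage 22 in isolation, 387 (43.93%) were also called higher in it from co-culture, and of the 286 in the other direction, 175 (61.19%). Of the 200 genes at least 8-fold different in isolation, 129 had a smaller difference from co-culture with the change itself called, and 31 of the 178 and 4 of the 22 were still at least 8-fold apart. The genes of both cuts were chosen on isolation values, which also enter the test of the change. That choice favours smaller differences from co-culture. Of the 167 genes that were close to silent in lineage 45 in isolation, 140 (83.8%) had a higher mean in lineage 45 from co-culture than in isolation and 34 (20.4%) reached 1 CPM there. The shares were 42.9% and 8.4% of the other 1834 tested genes under 1 CPM in lineage 45 in isolation, and the 167 were chosen on their isolation values, so no test is given. Whether sorted fractions held cells of other lineages was not tested.

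**Figure D4:**
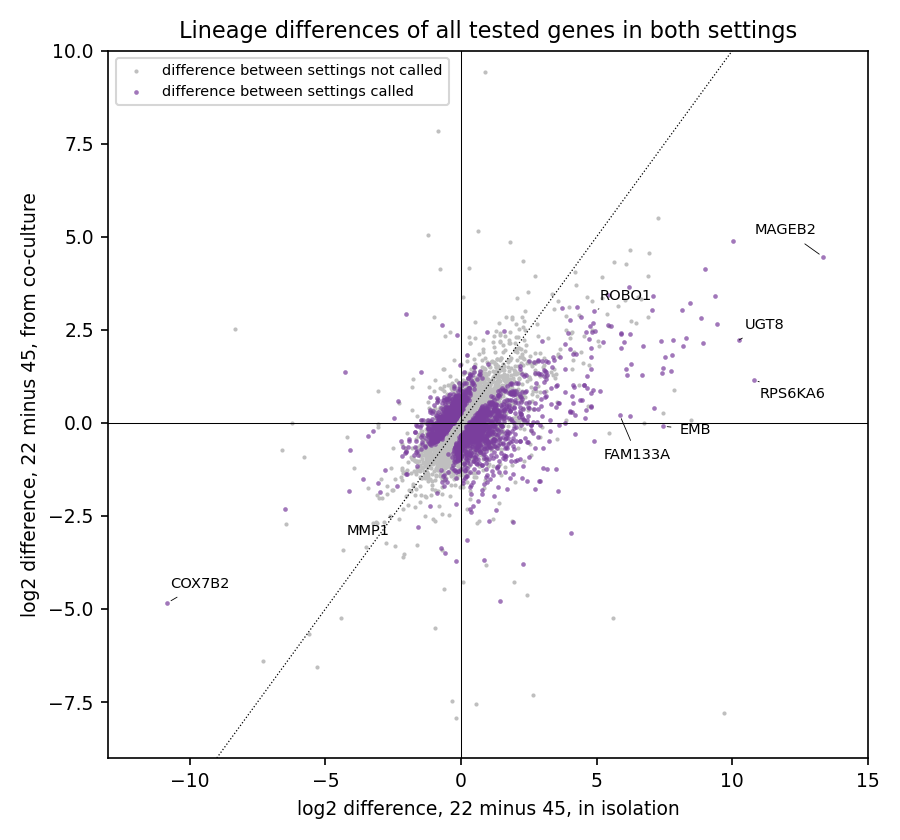
Log2 difference (22 minus 45) of each tested gene in isolation (horizontal) and from co-culture (vertical), purple where the difference between settings was called and gray where not, with the line of equality dotted. Most genes far to the right lie below the line, among them MAGEB2, UGT8 and EMB, and MMP1 lies close to it. Picking genes by a large isolation value favours a place below the line.

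The genes whose contrast changed with the smallest p were EMB, FAM133A, GPR158, UGT8, PCDH1 and LRP3, taken among genes at least 4-fold different in isolation with at least 5 CPM in the higher lineage. EMB, close to silent in lineage 45 in isolation, had means from co-culture of 8.35 ± 1.37 CPM in lineage 22 and 8.89 ± 1.60 CPM in lineage 45 (SD, n = 3), a log2 difference of -0.09. FAM133A and PCDH1 were instead low in both lineages from co-culture, FAM133A at 3.49 ± 0.994 and 3.02 ± 0.546 CPM and PCDH1 at 8.36 ± 1.13 and 8.74 ± 0.533 CPM. The lineages overlapped in all 3 genes there. The change in contrast was 7.54 for EMB (adjusted p = 1.2e-10), 5.63 for FAM133A (1.2e-09) and 2.66 for PCDH1 (9.3e-09). UGT8 and GPR158 stayed higher in lineage 22 from co-culture, at 19.6 against 4.19 CPM and 5.79 against 1.31 CPM. LRP3, a low-density lipoprotein receptor family gene, went from 13.5, 13.0 and 12.3 CPM against 2.13, 1.81 and 1.93 CPM in isolation to means of 9.08 and 6.30 CPM from co-culture. MAGEB2 stood at 51.3 and 2.32 CPM from co-culture and COX7B2 at 0.334 and 9.63 CPM, so both kept their side.

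**Figure D5:**
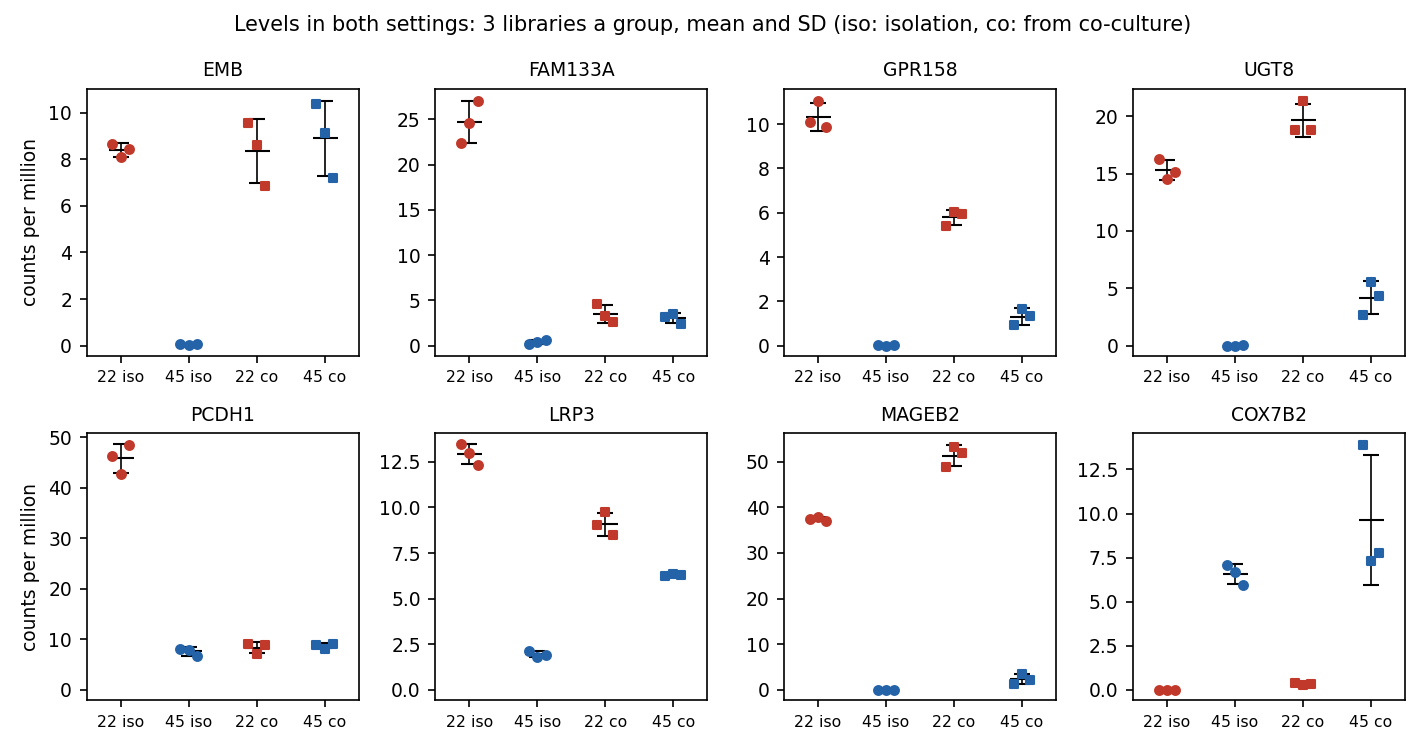
Expression in CPM of 8 genes in lineage 22 (red) and lineage 45 (blue) in isolation (iso, circles) and from co-culture (co, squares), each point 1 library with the group mean and SD (n = 3). EMB is near 0 in lineage 45 in isolation only, FAM133A and PCDH1 are high in lineage 22 in isolation only, and MAGEB2 and COX7B2 keep their order.

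Gene groups differed in how far they held in the other setting. Antigen presentation had 9 of 23 higher in lineage 22 and 0 in lineage 45 from co-culture (median 0.28), and HLA-B means there were 164 and 131 CPM. Interferon-stimulated genes had 22 and 0 of 43 (median 0.40), and the members higher in lineage 45 in isolation were not called toward it from co-culture. IFIT2 and IFIT3 were called higher in lineage 22 there (log2 differences 0.40 and 0.48). NF-kappaB and cytokine genes had 1 and 6 of 29 (median -0.19), ATF4 targets 4 and 4 of 26, hypoxia targets 1 and 2 of 20, ribosomal proteins 0 and 6 of 37, and S phase genes 7 and 2 of 27. Counts of ATF4 targets, hypoxia targets and ribosomal proteins were near or below the shares of all genes. TGF-beta and BMP genes had 10 and 5 of 25, where SMAD6 kept its difference (log2 2.22) and TGFBI came closer (0.37, adjusted p of the change 2.5e-08). MMP1 was at -2.60 in isolation and -2.51 from co-culture (change -0.09, adjusted p = 0.88), and CST1 at -3.08 and -2.69 (change -0.39, adjusted p = 0.69). In the segments, the co-culture medians were -0.12 for X, 0.10 for chromosome 4, -0.16 for chromosome 7, -0.20 for chromosome 19 and -0.49 for chromosome 1, of which the last was close to its value in isolation. Segments were set on isolation medians, so regions shifted only from co-culture are not among them.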

How the data were processed

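RNA was measured by a stranded, paired-end mRNA protocol from 500 ng of RNA with 75 nt reads, per the labels' protocols. The deposited table holds length-scaled estimated counts per gene. Per the submitters' processing notes, the genome was GRCh38 (hg38) and the tools included Salmon 1.4.0 and STAR 2.6.1d, while the annotation, the trimming and the strand setting are not given in the sources used here, so reads of overlapping or antisense genes may not be told apart. Estimated counts were rounded to whole numbers and read by column name, with 0 columns left unmapped. One table of 18 libraries (lineages 22, 35 and 45, isolation and co-culture) was fitted with edgeR 4.0.16 (R 4.3.3, limma 3.58.1): filterByExpr by group, TMM, robust quasi-likelihood fit and test, Benjamini-Hochberg over 14570 genes, threshold 0.05. The 18 libraries share the estimate of spread, and the biological coefficient of variation was 10.4%. CPM are counts scaled to 1e6 of the TMM-adjusted total. Fold changes are fitted values. For a gene with 0 counts in a group, a lower bound takes 3 counts over the group, and with 1 to 3 counts the ratio has a 95% interval for counting error. Members and the 45 gene lists were chosen with earlier results of these data known.

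Genes named by rule were the 12 largest in each direction (called, at least 5 CPM in the higher lineage, no overlap), the 6 most abundant at least 2-fold different in each direction, up to 4 called members of each list by p, the 6 with the smallest p for the change between settings among genes at least 4-fold different, and cell markers. Some of these are not reported here. Others are said to be named after their values were seen. Lists held 1062 symbols, of which 1060 were found, 14 by another symbol. Positions are from GENCODE v29 for 23836 genes by symbol and 664 by another symbol, from RefSeq for 802, and missing for 1173. Promoters are from RefSeq, GRCh38.p14. Replicates of a lineage in isolation differed beyond sampling noise, with a chi-square per gene from 6.00 to 25.4. Same-numbered deviations correlated between lineages at 0.36, 0.25 and 0.17 from co-culture, and those of different numbers at -0.333 to 0.0987. No such pattern was seen in isolation. Deviations of 3 libraries from their own mean are not independent, so these values cannot settle whether replicate numbers pair libraries. The p-values given come from the fit without a replicate block unless a block is named. Scripts were tested on simulated data. Alternatives were DESeq2 1.42.0, RLE scaling, other filters on low counts, a 1.5-fold test, a replicate block, fits of the 6 libraries alone or without lineage 35, scaling on genes outside the segments, and leaving out each library.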

Additional observations from a re-analysis of the deposited data

Results flagged for a closer look

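The contrast between lineages 22 and 45 differed between isolation and co-culture in 2524 genes by edgeR's test of the difference of differences (adjusted p under 0.05), and 90 of the 119 genes named with values in the text are among them. Each value that follows is the log2 difference in isolation minus that from co-culture, and it is positive where lineage 22 was relatively higher in isolation. For genes with 0 to 3 counts in a group the fitted value depends on the prior count and is no bound. Isolation and co-culture libraries differ in culture time, sorting and extraction, which cannot be told apart.

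Genes close to silent in 1 lineage in isolation had the largest changes. These were 9.65 for RPS6KA6, 8.87 for MAGEB2, 8.03 for UGT8, 7.54 for EMB, 6.79 for NLRP2, 6.77 for GPR158, 6.37 for LINC01602, 6.06 for FRMD3, 6.04 for LINC01139, 5.96 for CLEC11A, 5.63 for FAM133A, 4.71 for TMEM98, 4.01 for COBL and, with lineage 45 the higher, -5.99 for COX7B2. Genes at least 2-fold different in isolation that were called on the other side from co-culture had 6.08 for PTGFRN, 2.50 for LSR, 2.45 for FZD8 and 2.00 for BTG2. Below 2-fold, IFIT2, IFIT3 and FST went from called higher in lineage 45 to called higher in lineage 22, with values given below.

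Genes of antigen presentation, interferon and cytokines followed. Antigen presentation genes had 2.30 for HLA-F, 1.19 for HLA-B, 0.66 for HLA-C and 0.50 for ERAP1. Interferon-stimulated genes had 1.53 for RSAD2, 0.79 for XAF1 and 0.66 for DDX60, and those higher in lineage 45 in isolation had -0.98 for IFIT1, -0.88 for IFIT2, -0.80 for IFIT3, -0.72 for ISG15, -0.62 for IFITM2 and -0.61 for IFI44. Cytokine and complement genes had 2.40 for CCL5, 2.26 for TNFRSF9, 2.24 for C1S, 1.01 for TNFSF10, 0.96 for SERPINE2 and -0.85 for F13A1.

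Growth factor, matrix and adhesion genes also differed. TGF-beta and BMP genes had 1.98 for ID2, 1.90 for TGFBI, 1.16 for INHBB and -1.06 for FST. Matrix and adhesion genes had 2.66 for PCDH1, 1.96 for SPARC, 1.71 for CTSV, 1.08 for COL6A2, 1.08 for LOXL4, 0.87 for TNS4, -0.75 for FLNC and -1.30 for ITGBL1. Epithelial, calcium-binding and guidance genes had 3.04 for S100P, 1.91 for ROBO1, 1.56 for CD24, 1.36 for KRT81, 0.98 for SNAI2, -1.12 for SIRPA and -1.45 for SEMA3E. Signalling genes, channels and receptors had 0.61 for ANKRD1, 0.61 for ATP1B1, 0.37 for KLF10, -0.39 for CTGF, -0.66 for KCNQ5 and -1.23 for RAMP1.

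Metabolic and stress genes changed in both directions. Toward lineage 22 in isolation these were 2.20 for LRP3, 2.03 for PHGDH, 1.45 for AKR1C3, 1.37 for EGLN3, 1.02 for SLC1A3, 0.99 for PTGS1, 0.96 for STC1 and 0.90 for PGK1. Toward lineage 45 they were -1.55 for TBXAS1, -1.42 for ENPP1, -0.93 for ASL, -0.88 for OGDH, -0.65 for MDH2, -0.63 for ACLY, -0.55 for SDHA, -0.49 for GPI, -0.44 for HK2, -0.44 for GSTM4 and -0.42 for DLD. Translation and replication genes had -0.66 for EEF2, -0.48 for RPS2 and -0.70 for MCM7. The other genes named had 1.19 for SPANXB1, -0.64 for GLB1L2, -0.67 for CPED1, -0.68 for DMBT1, -0.85 for WDR62 and -1.08 for PEG10.

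The median over the 422 genes of the X segment changed by 0.67 between settings, with the 3 libraries of lineage 22 above the mean of lineage 45 in isolation (0.54, 0.53 and 0.51) and below it from co-culture (-0.06, -0.17 and -0.13). This difference of medians was not tested, since genes of a segment are not replicates.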

How the results depend on the processing

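Which lineage had more called genes depended on the setting, since DESeq2 called 2816 genes higher in lineage 22 and 2782 higher in lineage 45, and RLE scaling 2861 and 2731. A test against a 1.5-fold difference called 750 genes higher in lineage 22 and 376 higher in lineage 45 in place of 2717 and 2881, since it asks for more. Leaving out 1 library gave 2241 to 2365 and 2270 to 2557, and the 6 libraries alone 3697 and 3437. With at least 5 CPM in 3 libraries, 345 and 127 genes were at least 2-fold higher in place of 881 and 286, since fewer genes were tested. Leaving out 1 library gave 837 to 909 and 263 to 285 there, 1704 to 1872 in place of 1964 shared calls, 3443 to 3651 in place of 3669 co-culture calls, and 1911 to 2233 in place of 2524 changed contrasts. Same-numbered deviations of the isolation samples correlated between lineages at 0.10, -0.08 and 0.06. These values cannot settle whether replicate numbers pair the samples. With a replicate block the counts were 2744 and 2913 called, 875 and 285 at least 2-fold, 2006 shared, 3703 from co-culture and 2555 changed, and no such count moved by over 1.5 times. Of 119 genes in the text, the block ended the co-culture call of C1S (adjusted p = 0.05166) and RPS6KA6 (0.05073) and the change call of KLF10 (0.05713), and it added LOXL4 from co-culture (0.04594) and ADAMTS1 for the change (0.03734). Library 3 of lineage 22 gave the largest loss among genes higher in lineage 45.

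Moves of segment medians were measured against the SD of the 3 lineage 22 libraries, each set against the mean of lineage 45. That SD leaves out the spread of lineage 45, whose libraries had medians of 0.598, 0.517 and 0.492 against the mean of lineage 22 over the chromosome 19 segment. Segment medians moved by more than that SD in several settings and kept their sign in all. For chromosome 7 (-0.50) they were -0.484 with the 5 CPM filter, -0.4902 with DESeq2, -0.4385 with no filter, -0.4901 with RLE, -0.489 with the 6 libraries alone and -0.5157 without lineage 35, and for the chromosome 19 segment (-0.54) -0.5535, -0.5216, -0.5524, -0.5218, -0.5193 and -0.5481. For the X segment (0.55) they were 0.5636 with DESeq2, 0.533 with no filter and 0.5634 with RLE. Scaling on genes outside the segments, an alternative chosen after seeing the data, gave -0.5285, -0.5609, -0.4935, 0.5585 and 0.524 for chromosomes 7, 19, 1, 4 and X. Leaving out 1 library gave -0.5137 to -0.498, -0.5591 to -0.5146, -0.5282 to -0.4482, 0.5378 to 0.6052 and 0.5255 to 0.5525 in that order. The cause of these shifts was not tested. Of 205 called genes named by rule, 194 kept call and direction under every alternative that gave a value, 11 lost the call under at least 1, and 0 reversed. Of 90 list counts, 48 stayed within 1.5 times. A check of promoter CpG content over genes close to silent in 1 lineage is void, because 112 of 188 (59.6%) had a promoter, and its alternative was not run. Depth limits genes near 0: 3 counts over a group are the floor.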

Other observations

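A small group of genes changed sides between isolation and co-culture. Of the 1167 genes at least 2-fold different in isolation, 38 (3.256%) were called in the opposite direction from co-culture. The 4 genes that follow are those among the genes named by rule that did so, and this choice was made after their values were seen. PTGFRN, a membrane protein that binds tetraspanins, stood at 0.881, 0.673 and 0.706 CPM in lineage 22 and 0.196, 0.081 and 0.175 CPM in lineage 45 in isolation, with no overlap. From co-culture its means were 0.579 CPM in lineage 22 and 8.13 CPM in lineage 45, so that its log2 difference went from 2.29 to -3.79 (edgeR adjusted p of the change 9.3e-09). LSR, the junction gene, had means of 29.4 CPM in lineage 22 and 40.9 CPM in lineage 45 from co-culture, a log2 difference of -0.48 beside 2.02 in isolation. FZD8, the Wnt receptor gene, went from 1.58 to -0.87, and BTG2, an antiproliferative p53 target, from 1.21 to -0.79. All 4 had been higher in lineage 22 in isolation.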
